A study of Mus musculus with 15 samples.

Results

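The 9 genes described here handle choline in the mouse liver. Slc44a1 carries choline into cells and organelles. Chka and Chkb phosphorylate it, Pcyt1a turns phosphocholine into CDP-choline, and Cept1 joins that head group to diacylglycerol to give phosphatidylcholine. Pcyt2 does the matching step for ethanolamine, Pemt methylates phosphatidylethanolamine to phosphatidylcholine, Lpcat3 remodels the acyl chains of phospholipids, and Chdh starts the oxidation of choline to betaine. The genes were taken by symbol from a table of 57132 gene identifiers, and all 9 were found. All 9 also passed a filter on low counts that left 18181 genes. Taken strictly, Pcyt2, Chdh and Lpcat3 belong to the ethanolamine branch, to choline oxidation and to lipid remodelling, and not to choline uptake or the synthesis of phosphatidylcholine from choline.

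Phosphatidylcholine is the main phospholipid of cell membranes, of very-low-density lipoproteins and of bile. The liver makes it by the CDP-choline route, which uses choline from the diet, and by methylation through Pemt, which uses methyl groups from S-adenosylmethionine. Diets without choline are known to cause fat storage, inflammation and fibrosis in the rodent liver, and are used as models of steatohepatitis.

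RNA of liver pieces was sequenced in bulk from male C57BL/6J mice that were 8 weeks old at the start and carried no stated transgene or mutation. SR9009 mice ate CDA-HFD, a high-fat diet of defined amino acids that lacks choline, for 18 weeks and in the last 6 of these were injected daily into the peritoneum with SR9009, a synthetic agonist of the REV-ERB nuclear receptors, at 100 mg per kg. Vehicle mice had the same diet and schedule, with injections of the carrier alone (15% Kolliphor ELP in saline). Chow mice ate standard chow for 18 weeks, and the labels state no injection for them, so diet and injection cannot be told apart in any comparison with Chow. The study arms held 15 SR9009, 15 Vehicle and 10 Chow mice; 5 SR9009, 5 Vehicle and 4 Chow libraries were analysed, and Chow replicate 5 was not analysed here. The labels give no time of day for the collection of tissue. They do not say that each library is a separate mouse, so p-values measure the spread between these libraries.

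Total counts were between 29950509 and 45542335 per library, which puts 3 counts at 0.0659 to 0.1002 CPM, the count scaled to the library total. The 50 most abundant genes held 27.4% to 29.7% of the counts in SR9009 livers, 28.2% to 29.6% in Vehicle livers and 32.0% to 35.5% in Chow livers. Scaling by trimmed means (TMM) gave factors from 1.02 to 1.15 in the diet-fed libraries and from 0.753 to 0.824 in Chow libraries. Without these factors the median log2 fold change of all genes moved from 0.02 to 0.50 in Vehicle versus Chow, and by -0.03 in SR9009 versus Vehicle. Levels below are TMM-scaled CPM unless raw totals are named. Hepatocyte markers were detected in every library: 10 of them summed to 61740 to 79440 CPM in SR9009 livers, 74960 to 81610 CPM in Vehicle livers and 106100 to 145900 CPM in Chow livers. The diet-fed libraries also parted by how many of 1752 olfactory and related receptor genes had a count. SR9009 replicates 2, 4 and 5 and Vehicle replicates 1, 2 and 3 had 150 to 231 such genes, SR9009 replicates 1 and 3 and Vehicle replicates 4 and 5 had 58 to 76, and Chow libraries had 45 to 105.

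Among the 9 genes, Chka was the 1 gene that differed between SR9009 and Vehicle livers, where it was 2.6-fold lower. That is 1 of 9 called, against a background of 0.242% of all genes tested (0.077% lower). Between Vehicle and Chow livers, 7 of the 9 were lower at TMM scaling and none was higher, with Pcyt2 changing most at that scaling. The background there was high, at 55.2% of all genes (25.4% lower and 29.8% higher). The calls came from edgeR's quasi-likelihood test with Benjamini-Hochberg adjustment over all tested genes, at an adjusted p under 0.05. With raw totals only Pcyt2 was lower in Vehicle than in Chow livers, Chka and Cept1 were higher and 6 were not called, against 64.7% of all genes called (57.1% higher and 7.58% lower). Relative to the median of all genes, which moves with the scaling much as each gene does, 8 of the 9 lay below it in Vehicle versus Chow and Chka lay above it.

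**Figure D1:**
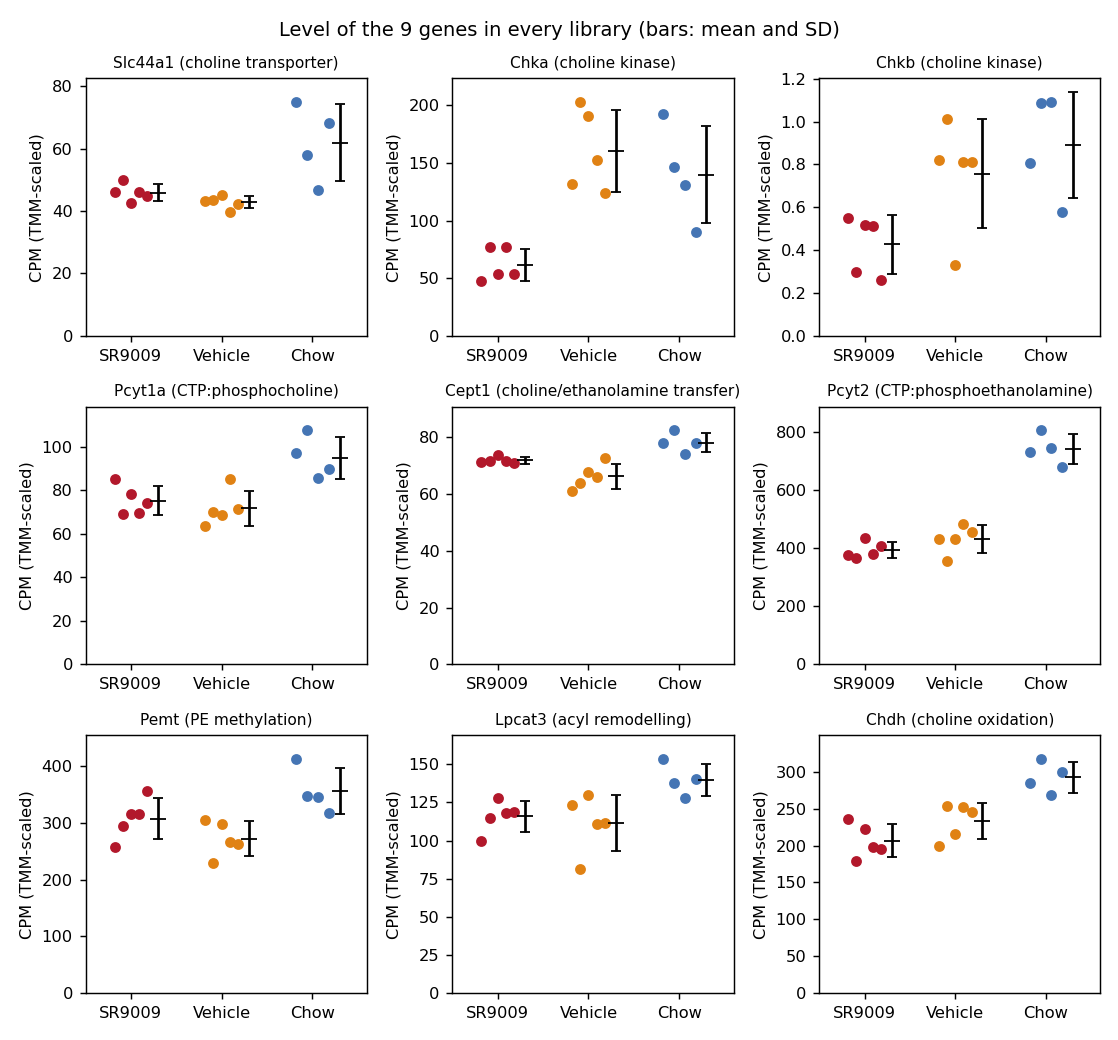
Level of each gene in CPM (TMM-scaled, vertical axis from 0) in every SR9009, Vehicle and Chow library; bars give the mean and SD beside the points. The 5 SR9009 points of Chka lie between 47.5 and 76.9 CPM, below all Vehicle and Chow points, while all Vehicle points of Pcyt2 lie below the Chow points.

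Choline enters the pathway through transporters. Slc44a1 (ENSMUSG00000028412), a choline transporter of the plasma membrane and mitochondria, had 46.1, 49.9, 42.5, 45.96 and 44.8 CPM in the 5 SR9009 livers and 43.3, 43.6, 45.1, 39.8 and 42.3 CPM in the 5 Vehicle livers. The 4 Chow livers had 74.9, 57.8, 46.6 and 68.0 CPM. The diet-fed groups overlapped and were tight, whereas the Chow livers were spread widely and all lay above the Vehicle livers. Slc44a1 was lower in Vehicle than in Chow livers by a log2 fold change of -0.53 ± 0.11 (SE; 1.44-fold lower; edgeR quasi-likelihood adjusted p = 4.61e-04). With raw totals that difference was -0.04 (adjusted p = 0.747). SR9009 against Vehicle gave 0.10 with a 95% interval from -0.11 to 0.31.

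Choline kinase makes phosphocholine and so commits choline to phosphatidylcholine. Chka (ENSMUSG00000024843) encodes the alpha isoform, and Chkb the beta isoform, which in mice is known for its role in muscle. Their promoter windows are shown because Chka is the member that responded to SR9009 and Chkb is its paralogue. The sequences are RefSeq's for GRCm38.p6, from 250 bases before to 50 bases after the transcription start, written 5′ to 3′ on the strand of the gene. Capitals mark CCAAT (the CCAAT box) and GGGCGG (the GC box), on either strand, so that they also appear as ATTGG and CCGCCC. The Chka window lies at chr19:3851523-3851822 on the plus strand and Chkb at chr15:89429878-89430177 on the minus strand.
Chka: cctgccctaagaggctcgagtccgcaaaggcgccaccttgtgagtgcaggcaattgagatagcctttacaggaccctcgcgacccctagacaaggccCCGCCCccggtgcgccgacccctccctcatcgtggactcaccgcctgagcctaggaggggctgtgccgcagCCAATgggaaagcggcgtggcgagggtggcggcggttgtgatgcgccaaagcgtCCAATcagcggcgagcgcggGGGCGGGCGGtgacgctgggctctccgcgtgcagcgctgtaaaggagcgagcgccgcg
Chkb: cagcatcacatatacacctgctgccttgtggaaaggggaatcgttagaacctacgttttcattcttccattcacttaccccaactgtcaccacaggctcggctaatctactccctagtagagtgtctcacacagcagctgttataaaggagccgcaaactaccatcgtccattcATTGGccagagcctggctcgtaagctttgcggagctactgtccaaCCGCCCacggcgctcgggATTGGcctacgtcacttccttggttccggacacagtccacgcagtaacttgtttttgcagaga

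Both windows held 2 CCAAT matches; that of Chka held 3 GGGCGG matches, of which 2 overlap each other, and that of Chkb held 1. Of 32851 windows of this length, 37.4% held CCAAT and 35.7% held GGGCGG. Neither window held CACGTG (the E-box, found in 7.2% of windows) or AGGTCA (bound by many nuclear receptors, found in 16.3%), which says only that these letters are not in these 300 bases. Over the 16 windows of the 8 members in the table, 5 had CCAAT, 10 had GGGCGG, none had CACGTG and 1, of Pcyt1a, had AGGTCA; some windows of 1 gene overlap each other.

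Chka had 47.5, 76.9, 53.9, 76.8 and 53.6 CPM in SR9009 livers, 131.6, 203.1, 190.8, 152.7 and 124.2 CPM in Vehicle livers, and 192.6, 146.2, 131.3 and 89.9 CPM in Chow livers. Every SR9009 liver was below every Vehicle liver and every Chow liver, while Vehicle and Chow livers overlapped. A gap of this kind towards lower values was found for 0.979% of all genes between SR9009 and Vehicle livers. Chka was lower in SR9009 than in Vehicle livers by -1.38 ± 0.21 on the log2 scale (SE; 95% interval -1.82 to -0.94; edgeR quasi-likelihood adjusted p = 0.00935). With raw totals the difference was -1.41 (adjusted p = 0.0127), where 0.209% of all genes were called and 0.066% were lower. Leaving out any 1 of the 14 libraries gave -1.47 to -1.28, with adjusted p from 0.00304 to 0.048. The call was lost without the filter on low counts, where the difference was -1.38 (adjusted p = 0.052). Within the libraries with few receptor genes (2 against 2) the difference was -1.45 (adjusted p = 0.283), and within those with many (3 against 3) it was -1.34 (adjusted p = 0.094). With receptor class as a term it was -1.39 (adjusted p = 5.2e-04).

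Against Chow livers, Chka in SR9009 livers was also lower, by -1.18 ± 0.22 on the log2 scale (SE; 2.27-fold lower; edgeR quasi-likelihood adjusted p = 2.78e-04), and with raw totals by -0.71 (adjusted p = 0.0122). Vehicle against Chow gave 0.20 with a 95% interval from -0.26 to 0.66 (edgeR quasi-likelihood adjusted p = 0.462), and with raw totals 0.69 (adjusted p = 0.0153). The comparisons of SR9009 with Chow and of Vehicle with Chow share the Chow libraries. No marker of 12 cell type lists was called between SR9009 and Vehicle livers, where 0.242% of all genes were called. This does not show that the cell types were equal. Only 2 of 6 adipocyte and 3 of 7 pancreas markers were tested. Median log2 differences were -1.27 for adipocyte, -1.23 for neutrophil, 1.14 for red cell and 1.56 for mesothelial markers. Those of the other lists lay between -0.35 and 0.19. Neutrophil sums overlapped, with a median of 11.9 CPM in SR9009 livers (6.38 to 16.1) and 8.51 CPM in Vehicle livers (5.04 to 92.5). Red cell sums overlapped too, at 135.7 to 888.5 CPM in SR9009 livers and 105.6 to 281.5 CPM in Vehicle livers. The mesothelial list of 8 genes summed to 30.7 to 136.5 CPM in SR9009 livers and 21.4 to 68.9 CPM in Vehicle livers, with Krt14 at 0 in a Vehicle library. The adipocyte list of 6 genes summed to 18.9 to 31.1 CPM in SR9009 livers and 33.2 to 81.6 CPM in Vehicle livers. Adipoq, Lep, Plin1, Retn and Cfd were each at 0 in at least 1 library of both groups. Only Cidec of that list had counts in every library of these groups. The hepatocyte sums given above overlapped between SR9009 and Vehicle livers, and with raw totals they did not, at 70360 to 82500 CPM in SR9009 livers and 85690 to 93190 CPM in Vehicle livers. The part of these cell types in the Chka result was not tested. In bulk RNA, fewer cells of a type and less RNA per cell cannot be told apart.

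Chkb (ENSMUSG00000022617) had few counts in all groups, with 11 to 26 counts in SR9009 livers, 16 to 43 in Vehicle livers and 14 to 38 in Chow livers. Its levels were 0.551, 0.299, 0.52, 0.512 and 0.261 CPM in SR9009 livers, 0.821, 1.01, 0.331, 0.81 and 0.811 CPM in Vehicle livers, and 0.807, 1.09, 1.09 and 0.577 CPM in Chow livers. Vehicle replicate 3 lay among the SR9009 livers, and all other Vehicle livers lay above them. The difference between SR9009 and Vehicle livers was -0.81 ± 0.33 on the log2 scale (SE; 95% interval -1.51 to -0.11), with an unadjusted p of 0.0259 and an adjusted p of 0.563 in edgeR's quasi-likelihood test. SR9009 livers were lower than Chow livers by -1.06 ± 0.35 (SE; adjusted p = 0.0175, same test). That call was lost without Chow replicate 2 (adjusted p = 0.058), without Chow replicate 3 (adjusted p = 0.0555) and with raw totals (-0.61, adjusted p = 0.146). Vehicle against Chow gave -0.25 (95% interval -0.97 to 0.48) at TMM scaling and 0.23 with raw totals, with no call under either. The Chkb count is uncertain, since the read-through gene Gm44502 overlaps it and is listed at 0 in every library. Cpt1b lies beside it with 1 to 43 counts per library, and the neighbour C730034F03Rik had 19 to 62. How reads shared between such genes were assigned is not stated.

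The next enzymes activate the head groups with CTP, and Pcyt1a is regarded as the rate-limiting enzyme of the CDP-choline route. Pcyt1a (ENSMUSG00000005615) had 85.3, 69.2, 78.3, 69.6 and 74.3 CPM in SR9009 livers, 63.5, 70.0, 68.7, 85.2 and 71.6 CPM in Vehicle livers, and 97.0, 107.6, 85.5 and 90.0 CPM in Chow livers. All diet-fed livers were below all Chow livers, by a margin of less than 1 CPM at the nearest. Pcyt1a was lower in Vehicle than in Chow livers by -0.41 ± 0.09 on the log2 scale (SE; 1.32-fold lower; edgeR quasi-likelihood adjusted p = 0.00169), whereas raw totals gave 0.07 (adjusted p = 0.528). The difference of SR9009 from Vehicle livers was 0.07, with a 95% interval from -0.12 to 0.26.

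Pcyt2 (ENSMUSG00000025137), the rate-limiting enzyme of the CDP-ethanolamine route, had the largest log2 difference of the 9 in Vehicle versus Chow at TMM scaling; with raw totals that of Chka was larger. It stood at 374.5, 366, 436, 379.9 and 406 CPM in SR9009 livers, 432, 356, 429.8, 481 and 456 CPM in Vehicle livers, and 729, 804, 744 and 678.5 CPM in Chow livers. No diet-fed liver reached the lowest Chow liver, and SR9009 and Vehicle livers overlapped. Pcyt2 was lower in Vehicle than in Chow livers by -0.78 ± 0.10 on the log2 scale (SE; 1.71-fold lower; edgeR quasi-likelihood adjusted p = 4.59e-06). It is the 1 member whose diet call and direction held under both scalings, at -0.30 with raw totals (adjusted p = 0.00401). SR9009 livers were lower than Chow livers by -0.91 ± 0.10 (SE; 1.88-fold; edgeR quasi-likelihood adjusted p = 8.8e-07). For SR9009 against Vehicle it was -0.13, with a 95% interval from -0.32 to 0.06.

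Cept1 (ENSMUSG00000040774) encodes the enzyme that transfers both activated head groups to diacylglycerol. Its 5 SR9009 livers lay between 70.7 and 73.8 CPM, its 5 Vehicle livers between 61.0 and 72.6 CPM, and its 4 Chow livers between 74.1 and 82.4 CPM. Relative to its mean, the SR9009 group was the tightest of any member, with of 71.8 ± 1.23 CPM (SD, n = 5). Cept1 was lower in Vehicle than in Chow livers by -0.24 ± 0.06 on the log2 scale (SE; edgeR quasi-likelihood adjusted p = 0.00394), but higher by 0.24 with raw totals (adjusted p = 0.00631), so its direction rests on the scaling. The SR9009 minus Vehicle difference was 0.12 with a 95% interval from -0.01 to 0.24. The ends of Cept1 overlap Dram2 and Dennd2d, and the strand setting of the counting is not stated, so its count is uncertain.

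**Figure D2:**
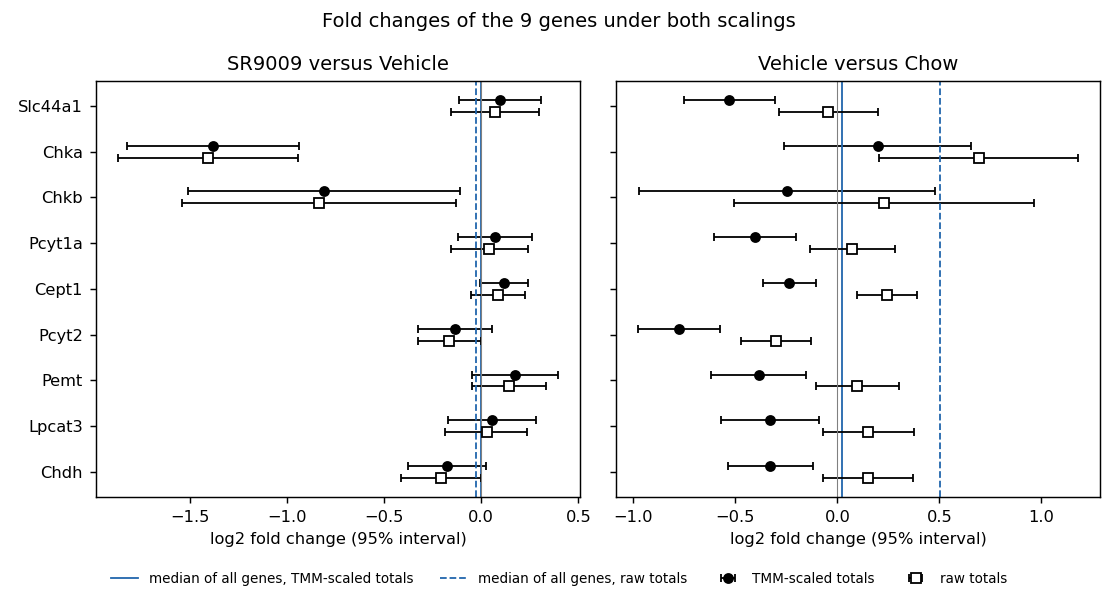
Log2 fold change of each gene with its 95% interval (horizontal axis) in SR9009 versus Vehicle and in Vehicle versus Chow; filled circles are TMM-scaled totals, open squares raw totals, and blue lines the median of all genes under each. In SR9009 versus Vehicle at TMM scaling the intervals of Chka and Chkb lie below 0 and the others include it. With raw totals 4 genes had an unadjusted p under 0.05 there in edgeR's quasi-likelihood test, against 2 at TMM scaling. The share of all genes under that threshold was not counted, so these counts are not read as a result. In Vehicle versus Chow 6 genes change sign between the scalings.

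Pemt (ENSMUSG00000000301) encodes the methyltransferase of the choline-independent route, which is active mainly in hepatocytes. It had 256.6, 294, 316, 315 and 356.5 CPM in SR9009 livers, 306, 229.9, 298, 267 and 262 CPM in Vehicle livers, and 413, 348, 346 and 317 CPM in Chow livers. Vehicle livers all lay below Chow livers, while SR9009 livers overlapped both. Pemt was lower in Vehicle than in Chow livers by -0.39 ± 0.11 on the log2 scale (SE; 1.31-fold lower; edgeR quasi-likelihood adjusted p = 0.00726), against 0.10 with raw totals (adjusted p = 0.378). SR9009 against Chow was not called at TMM scaling (-0.21, adjusted p = 0.117) and was higher with raw totals (0.24, adjusted p = 0.0375). Between SR9009 and Vehicle livers the difference was 0.18, with a 95% interval from -0.05 to 0.40.

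Lpcat3 (ENSMUSG00000004270) adds polyunsaturated acyl chains to lysophospholipids and is a known target of the LXR nuclear receptors. It ranged from 100.0 to 127.7 CPM in SR9009 livers, from 81.5 to 129.6 CPM in Vehicle livers and from 127.9 to 153.7 CPM in Chow livers. Vehicle and Chow livers overlapped slightly. Lpcat3 was lower in Vehicle than in Chow livers by -0.33 ± 0.11 on the log2 scale (SE; edgeR quasi-likelihood adjusted p = 0.0217). That call was lost without Chow replicate 1 (adjusted p = 0.0729) and with raw totals (0.15, adjusted p = 0.215). SR9009 against Vehicle gave 0.06 with a 95% interval from -0.17 to 0.28. Lpcat3 overlaps Emg1, so its count carries the same doubt as that of Cept1.

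Chdh (ENSMUSG00000015970), the mitochondrial dehydrogenase that takes choline out of the pool for phosphatidylcholine, had 236.5, 179.8, 222, 198 and 196 CPM in SR9009 livers. It had 199, 254, 216, 252 and 246 CPM in Vehicle livers and 285, 318, 269 and 299.5 CPM in Chow livers. SR9009 and Vehicle livers overlapped, and both lay below the Chow livers. Chdh was lower in Vehicle than in Chow livers by -0.33 ± 0.10 on the log2 scale (SE; 1.26-fold lower; edgeR quasi-likelihood adjusted p = 0.0101), against 0.15 with raw totals (adjusted p = 0.21). SR9009 against Vehicle gave -0.18, with a 95% interval from -0.38 to 0.02. Chdh overlaps Cacna1d, which had 127 to 258 counts per library.

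For the 8 members not called between SR9009 and Vehicle livers, adjusted p-values in edgeR's quasi-likelihood test were between 0.563 and 0.973. This does not show that their levels were equal. Against Chow, 6 of the 9 were lower in SR9009 livers (Pcyt2, Chka, Chdh, Slc44a1, Pcyt1a and Chkb) and none was higher, where 56.2% of all genes were called (25.7% lower and 30.5% higher). With raw totals 2 were lower (Pcyt2 and Chka) and 2 higher (Cept1 and Pemt), against a background of 63.5% (8.67% lower and 54.8% higher). The libraries of 7 members did not overlap between SR9009 and Chow and those of 6 did not overlap between Vehicle and Chow, all towards lower values at TMM scaling. The same was seen for 21.0% and 20.7% of all genes.

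The diet comparison came with large differences in some lists of marker genes, where 25.4% of all genes were lower and 29.8% higher at TMM scaling. In Vehicle versus Chow, 9 of 10 hepatocyte markers were lower at TMM scaling, but with raw totals their sums overlapped, at 85690 to 93190 CPM in Vehicle livers and 87360 to 109800 CPM in Chow livers. All 10 macrophage markers were higher, summing to 2010 to 3136 CPM in Vehicle livers and 160 to 431 CPM in Chow livers. The 10 stellate and fibroblast markers summed to 1162 to 1670 CPM in Vehicle livers and 232.5 to 311 CPM in Chow livers, and 9 of them were higher. The 10 cholangiocyte markers were all higher, with 574 to 1201 CPM in Vehicle livers and 127 to 173 CPM in Chow livers. All 7 neutrophil markers tested were higher (median log2 difference 3.01), although their sums overlapped, at 5.04 to 92.5 CPM in Vehicle livers and 1.17 to 8.0 CPM in Chow livers. Of 10 T and NK cell markers 8 were higher and none lower (median 1.93). Of 8 mesothelial markers 2 were higher and none lower (median 1.6). The endothelial, B and plasma cell and red cell lists moved less. Of 10 endothelial markers 3 were higher and 2 lower. Of 7 B and plasma cell markers tested 0 were higher and 1 lower, as were 0 and 1 of 5 red cell markers. The part of these cells in the differences of the 9 genes was not tested.

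Levels can be compared between genes only per length, here as CPM per kb of the union of annotated exons in an earlier assembly, which makes the order approximate. Pemt and Pcyt2 led in every group. Pemt was first in SR9009 livers with 146 ± 17.3 CPM per kb, above Pcyt2 with 90.3 ± 6.57, and their libraries did not overlap (SD, n = 5). In Vehicle livers the order was the same but the libraries overlapped, at 129.5 ± 14.5 and 99.1 ± 10.7 CPM per kb (SD, n = 5). In Chow livers the pair stood level, at 169 ± 19.3 for Pemt and 170 ± 11.9 CPM per kb for Pcyt2 (SD, n = 4). Chdh and Lpcat3 came next, between 33.2 and 47.1 CPM per kb as group means, and overlapped each other in all groups. Cept1 held rank 5 everywhere, at 23.0 in SR9009, 21.3 in Vehicle and 25.0 CPM per kb in Chow livers. Chka held rank 8 in SR9009 livers with 5.13 ± 1.17 CPM per kb, where its libraries overlapped those of Slc44a1 (SD, n = 5). It held rank 6 in Vehicle livers with 13.4 ± 2.92 CPM per kb, overlapping Pcyt1a (SD, n = 5), and rank 7 in Chow livers with 11.6 ± 3.53 CPM per kb, overlapping Pcyt1a and Slc44a1 (SD, n = 4). Chkb was last in all groups, at 0.14 in SR9009, 0.247 in Vehicle and 0.291 CPM per kb in Chow livers.

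Ratios of a pair of genes within a library do not depend on how libraries are scaled, and 4 of them were compared in 12 exact two-sided permutation tests. None passed an adjusted p of 0.05, and the smallest p the design allows is 0.00794 for 5 against 5 and 0.0159 for 5 against 4. At these floors 1 fully separated ratio alone could not pass after adjustment over 12 tests. Not passing therefore does not show that a ratio was unchanged. The log2 ratio of Chdh to Chka, oxidation against phosphorylation of choline, was 2.32, 1.23, 2.04, 1.37 and 1.87 in SR9009 livers and 0.59, 0.32, 0.18, 0.72 and 0.98 in Vehicle livers. All 5 SR9009 livers lay above all 5 Vehicle livers, with a difference of 1.20 or 2.3-fold (exact permutation p = 0.00794, the smallest possible; adjusted p = 0.0635). At TMM scaling Chka differed by -1.38 and Chdh by -0.18 between these groups, so this separation largely restates that of Chka. Chow livers had 0.57, 1.12, 1.03 and 1.74 and overlapped both groups.

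The log2 ratio of Pcyt1a to Pcyt2, the enzymes that activate choline and ethanolamine, averaged -2.38 ± 0.14 in SR9009 livers, -2.59 ± 0.17 in Vehicle livers and -2.96 ± 0.11 in Chow livers (SD, n = 5, 5 and 4). Both diet-fed groups lay above all Chow livers. The difference was 0.38 for Vehicle against Chow and 0.58 for SR9009 against Chow, each with an exact permutation p of 0.0159 (the smallest possible) and an adjusted p of 0.0635. These comparisons share the Chow libraries. SR9009 against Vehicle gave 0.20 (exact permutation p = 0.0873, adjusted p = 0.19).

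The log2 ratio of Pemt to Pcyt1a, which sets the methylation route against the CDP-choline route, was 2.03 ± 0.26 in SR9009 livers, 1.92 ± 0.26 in Vehicle livers and 1.90 ± 0.18 in Chow livers (SD, n = 5, 5 and 4). The groups overlapped, and exact permutation p-values were between 0.492 and 0.857. The ratio of Chka to Chkb rests on the low Chkb counts, and its groups overlapped too, with exact permutation p-values from 0.254 to 0.857.

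**Figure D3:**
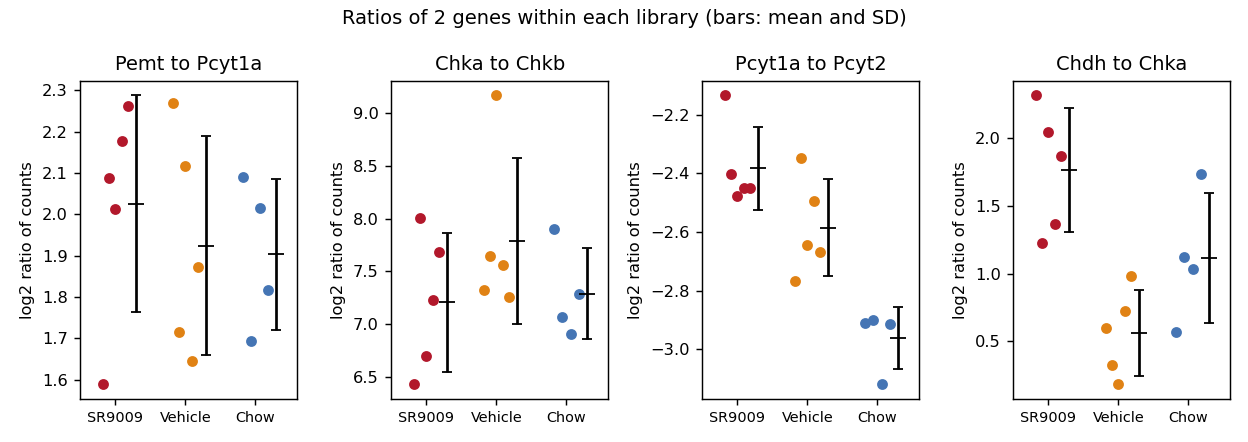
Log2 ratio of counts of a pair of genes within each library (vertical axes, which do not start at 0) in SR9009, Vehicle and Chow; bars give mean and SD. SR9009 livers lie above Vehicle livers for Chdh to Chka, and both diet-fed groups lie above Chow for Pcyt1a to Pcyt2.

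The members sit in a wider network of choline and phospholipid genes, of which 76 were listed and 73 tested. Between Vehicle and Chow livers, 22 of the 73 were higher and 38 lower at TMM scaling, and 32 were higher and 20 lower with raw totals. Over all genes tested the shares were 29.8% higher and 25.4% lower, and 57.1% higher and 7.58% lower with raw totals, and the counts of each list below stand against these. Their median log2 fold change was -0.33, beside 0.02 over all genes, and 0.15 beside 0.50 with raw totals. Slc44a5, Slc5a7 and Slc22a2 were too low to be tested.

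Of 7 other choline transporters tested, 5 were higher in Vehicle than in Chow livers and none lower, and with raw totals 7 were higher. Slc44a2, a choline transporter-like protein, averaged 30.8 ± 3.95 CPM in Vehicle livers and 10.1 ± 1.61 CPM in Chow livers (SD, n = 5 and 4). The heme exporter and choline transporter Flvcr1 averaged 10.1 ± 1.68 CPM in Vehicle livers and 4.0 ± 0.34 CPM in Chow livers. Their log2 differences were 1.61 and 1.34, with edgeR quasi-likelihood adjusted p of 3.66e-06 and 7.78e-07.

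Of the 5 other genes of the CDP branches, 4 were lower and 1 higher at TMM scaling, and 2 were lower and 1 higher with raw totals. Chpt1, the cholinephosphotransferase, averaged 121.5 ± 10.8 CPM in Vehicle livers and 271 ± 47.8 CPM in Chow livers (log2 difference -1.16, edgeR quasi-likelihood adjusted p = 4.99e-06). The ethanolamine kinase Etnk2 differed by -1.03 and its relative Etnk1 by -0.67, the second of which was not called with raw totals. Pcyt1b, the second isoform of the Pcyt1a enzyme, went the other way, with 2.76 ± 0.53 CPM in Vehicle livers and 0.539 ± 0.2 CPM in Chow livers (log2 difference 2.34, adjusted p = 1.71e-05).

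All 8 genes of choline oxidation and methyl donors other than Chdh were lower, 7 of them also with raw totals. Gnmt, which uses S-adenosylmethionine to methylate glycine, averaged 642 ± 67.7 CPM in Vehicle livers and 2140 ± 410.4 CPM in Chow livers (log2 difference -1.74, edgeR quasi-likelihood adjusted p = 2.6e-07). Ahcy, which clears S-adenosylhomocysteine, differed by -1.51 and the homocysteine methyltransferase Bhmt2 by -1.004.

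Of 7 acyl remodelling genes other than Lpcat3, 5 were higher and 1 lower (29.8% and 25.4% of all genes), and with raw totals 6 were higher and none lower (57.1% and 7.58% of all genes). The lysophosphatidylcholine acyltransferases Lpcat2, Lpcat4 and Lpcat1 differed by 2.53, 2.19 and 1.83 on the log2 scale, all called under both scalings, and Lpgat1 by -0.73, called at TMM scaling only. In the transfer and export list 5 of 8 were lower and 1 higher, and with raw totals 2 were lower and 1 higher. Mttp, which loads lipid onto apolipoprotein B, averaged 174 ± 15.8 CPM in Vehicle livers and 394 ± 26.6 CPM in Chow livers (log2 difference -1.18, edgeR quasi-likelihood adjusted p = 8.95e-08). Abcb4, which moves phosphatidylcholine into bile, differed by 0.59 (adjusted p = 1.19e-04).

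The LXR and SREBP list had 3 of 12 higher and 8 lower (4 and 6 with raw totals), and those with the smallest adjusted p were the cholesterol exporter Abcg1 (log2 difference 2.16), the SREBP escort Scap (-0.86) and the sterol exporter subunit Abcg5 (-1.17), all called in the same direction with raw totals. Breakdown and recycling genes had 4 of 14 higher and 6 lower, against 7 and 1 with raw totals; the shares higher, and the share lower with raw totals, were near those of all genes. Diacylglycerol and phosphatidic acid supply had 2 of 7 higher and 4 lower, against 3 and 2. Phosphatidylserine and phosphatidylethanolamine supply had 1 of 5 higher and 2 lower, against 3 and 0 with raw totals. Pld2, a phospholipase D, was higher by 0.997, and Lcat, the plasma cholesterol acyltransferase that uses phosphatidylcholine, was lower by -0.72 (edgeR quasi-likelihood adjusted p = 2.81e-06 and 1.79e-05).

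Between SR9009 and Vehicle livers none of the 73 wider genes was called by edgeR's quasi-likelihood test, where 0.242% of all genes were called. In that test 7 of the 73 had an unadjusted p under 0.05. The share of all genes under it was not counted, so the 7 is not read as a result. DESeq2 called 1 of the 73, Insig2, which retains the SREBP complex in the endoplasmic reticulum, against 1.06% of all genes it tested. Insig2 averaged 197 ± 22.6 CPM in SR9009 livers and 293 ± 38.6 CPM in Vehicle livers (SD, n = 5 each), a log2 difference of -0.57 ± 0.12 (SE; edgeR quasi-likelihood adjusted p = 0.0868; DESeq2 adjusted p = 0.00243). Others with an unadjusted p under 0.05 included Slc22a3 (-0.86), Etnk2 (0.31), Abcg5 (0.42), Abcb4 (-0.25) and Ptdss2 (0.20), each given as a log2 difference and none called by edgeR. The lower level of Chka in SR9009 livers was thus the 1 call by edgeR among the 9 members and the 73 wider genes.

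**Figure D4:**
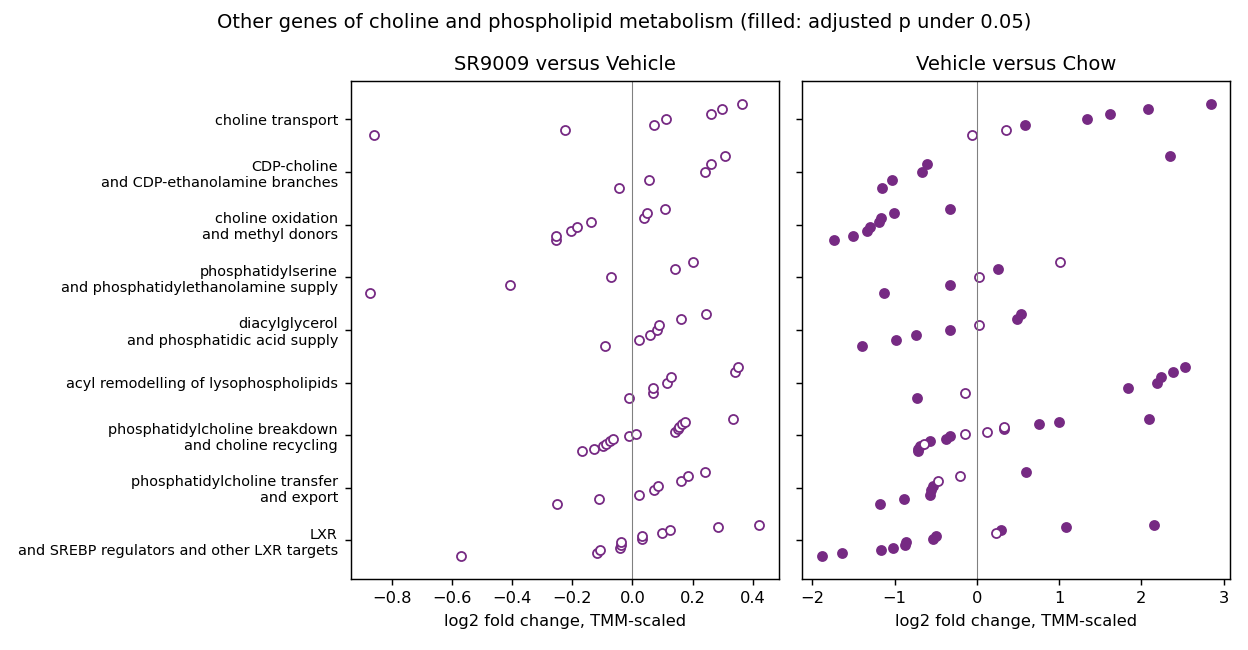
Log2 fold change at TMM scaling (horizontal axis) of the 73 tested genes of the wider lists, in SR9009 versus Vehicle and in Vehicle versus Chow; each point is a gene and filled points have an adjusted p under 0.05. No point is filled in SR9009 versus Vehicle, where 0.242% of all genes were called. In Vehicle versus Chow 22 are filled to the right and 38 to the left of 0 (29.8% and 25.4% of all genes). With raw totals these were 32 and 20 (57.1% and 7.58% of all genes).

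The genes whose profile over the 14 libraries was nearest to that of Chka, by the mean absolute difference of centred log2 CPM, were Arl4a (0.226), Pnrc1 (0.274) and Ypel2 (0.28). As a description of what chose them, centred levels averaged -0.82 in SR9009, 0.56 in Vehicle and 0.33 in Chow livers for Chka, and -0.55, 0.38 and 0.20 in the same order of groups for Arl4a. Pcyt2 was followed more closely, by Pex6 (0.0512), Acbd4 (0.0627) and Tmprss6 (0.0645), as was Pemt by Rps2 (0.046) and Cept1 by Map2k1 (0.0445). The profile of Chka thus had no neighbour as near as those of Pcyt2, Pemt and Cept1, which vary less over the libraries.

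**Figure D5:**
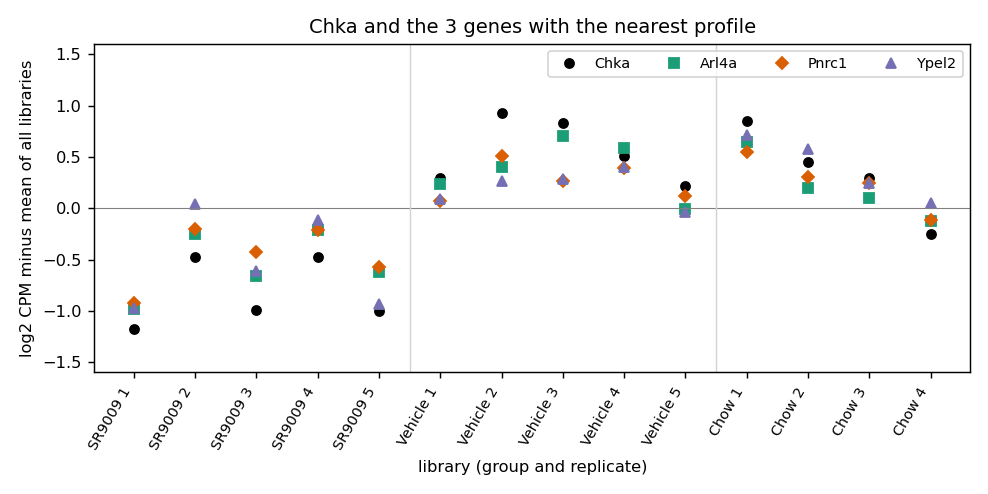
Log2 CPM minus the mean of all 14 libraries (vertical axis) for Chka and the 3 genes with the nearest profile, in each SR9009, Vehicle and Chow library. All 5 SR9009 libraries of Chka lie below 0 and all 5 Vehicle libraries above it.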

How the data were processed

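Liver RNA of 14 libraries (5 SR9009, 5 Vehicle, 4 Chow) was analysed from the authors' deposited table of raw counts per Ensembl gene, 1 column per library. Per the submitters' processing notes the aligner was STAR 2.7.11b and the build GRCm39. No source used here names the counting program, its annotation or its strand mode, so overlapping genes are uncertain. Symbols and exon lengths came from a GRCm38 annotation, used for names and approximate lengths only, and named 51880 identifiers (90.8%) holding 99.6% of counts. Promoter windows came from RefSeq, GRCm38.p6.

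The test was edgeR's (4.0.16, under R 4.3.3): filterByExpr by group (minimum count 10, minimum total 15), TMM scaling, robust quasi-likelihood fits with 1 spread for all groups, two-sided, and Benjamini-Hochberg adjustment over 18181 genes at 0.05. The common coefficient of biological variation was 0.211. Standard errors follow from the quasi-likelihood F. The fit was tested on simulated counts with the mean levels of Vehicle livers in all groups and known changes in SR9009 only. That test was read for SR9009 versus Vehicle, so it does not bear on the comparisons with Chow. Ratios within libraries were compared by exact permutation (scipy 1.17.1) with adjustment over 12 tests. Floors of 3 counts cover counting error only. Within groups, no pair of libraries (26 pairs) agreed within sampling noise: the lowest chi-square per gene averaged 15.3.

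Alternatives were DESeq2 1.42.0, limma-voom (limma 3.58.1), DESeq2 size factors, raw totals, no filter, a minimum count of 50, the replicate number as a block, only the groups compared, each library left out, and the number of receptor genes detected (boundary 113) as a term or within each class. The members and lists were chosen with earlier results of these data known. The rule named all 9 members, up to 3 genes per wider list with the smallest adjusted p and those going against their list, and the 3 named genes with the nearest profile. The values of 1 gene from the wider lists are not reported here.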

Additional observations from a re-analysis of the deposited data

Results flagged for a closer look

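Within groups, 39 sets of 4 or 5 libraries (each member's level and each ratio in each group) were examined for a library far from the rest, and 3 were marked; chance marks about 1 in 20 groups. The log2 ratio of Chka to Chkb was 9.17 in Vehicle replicate 3, against 7.26 to 7.65 in the other Vehicle libraries; the library had 16 Chkb counts. The log2 ratio of Pcyt1a to Pcyt2 was -2.13 in SR9009 replicate 1, against -2.48 to -2.40 in the other SR9009 libraries. The same ratio was -3.12 in Chow replicate 3, against -2.91 to -2.90 in the other Chow libraries.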

How the results depend on the processing

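For SR9009 against Vehicle, Chka kept its direction in all 25 alternatives (-1.47 to -1.28). The count of called members was 1. It was 0 without the low-count filter, within libraries with few and with many receptor genes, and with the replicate block. With the block Chka had -1.37 (edgeR quasi-likelihood adjusted p = 0.0525). Within a class fewer libraries are compared, although all 14 enter the fit. The cause of the lost calls was not tested. Same-numbered libraries did not deviate together (correlations -0.362 to 0.196), so the numbers do not pair the libraries. The count of wider genes was 0, and 1 without the filter, with the class term, by DESeq2 and by limma-voom, and 0 to 1 with a library left out (1 without Chow replicate 1 or Vehicle replicate 2). All genes called were 44; this was 15 with the replicate block, 106 with the class term, 9 and 24 within the few and many classes, 193 by DESeq2, and 18 to 56 with a library left out (18 without SR9009 replicate 4, 19 without SR9009 replicate 5, 20 without SR9009 replicate 1, 21 without Vehicle replicate 3, 25 without SR9009 replicate 3, 26 without Vehicle replicate 4 and 27 without Vehicle replicate 1). Members called were 1 in every one of these left-out fits.

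For Vehicle against Chow, 7 members were called, and 3 with raw totals, where the scaling itself moves the median of all genes; there Chkb (0.23), Pcyt1a (0.07), Pemt (0.10), Chdh (0.15), Cept1 (0.24) and Lpcat3 (0.15) changed sign. Leaving out a library gave 6 to 7. The split of all genes called was 5414 higher and 4621 lower, and 10389 and 1378 with raw totals. For SR9009 against Chow, raw totals changed the sign of Pcyt1a (0.11), Pemt (0.24), Slc44a1 (0.03), Cept1 (0.33) and Lpcat3 (0.18), and 5 to 7 members were called with a library left out, against 6. In that comparison Lpcat3 was called in 7 alternatives, and Chkb lost its call with the replicate block (-1.01, adjusted p = 0.058). Lpcat3 in SR9009 against Vehicle was -0.04 without Vehicle replicate 2. Ratios near 0 changed sign: Pemt to Pcyt1a in Vehicle against Chow was -0.04 by medians and -0.07 to 0.09 with a library left out, and Chka to Chkb in SR9009 against Chow was 0.05 by medians and -0.28 to 0.12 with a library left out. Depth limits only Chkb among the members.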
